A study of Triticum aestivum with 9 samples.

Results

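The step from mild to severe heat was examined as the difference between filling wheat grains exposed to 40 °C and those exposed to 30 °C for 1 h. The comparison used 6 of the 9 RNA-seq samples of the series, namely the 3 plants at 40 °C and the 3 plants at 30 °C, as their titles name them. A transcript was kept when its mean FPKM (fragments normalised to the length of the transcript and the size of the library) was above 1 at either temperature, which left 44638 transcripts of 41356 genes out of 133744 annotated transcripts of 107891 genes. The other 89106 transcripts were not tested. The study set both heat levels against 20 °C to ask what accompanies rapid protein changes in heated grain, and the step between the heat levels asks what the further rise in temperature adds.

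All plants were bread wheat (Triticum aestivum) of the cultivar Chinese Spring, moved 12 days after flowering to chambers at 20 °C with a day of 14 h and a night of 10 h for 3 days. Severe heat (40 °C, n = 3) and mild heat (30 °C, n = 3) were then given by a rapid shift to pre-heated incubators in the light, while the 20 °C plants (n = 3) stayed where they were. Whole grains of the main stem were frozen after the exposure, and the study's methods state that the 3 plants of each temperature were independent. Plants at 40 and 30 °C stood in different incubators, so incubator and temperature cannot be told apart between them. The comparison therefore holds for 1 cultivar and 1 exposure time, and for RNA of the whole grain, in which fewer cells of a type and less RNA per cell cannot be told apart. One field of the labels, on RNA extraction, speaks of ovarian granulosa cells where all the others say grains. The identifiers carry no gene names, so the labelled tissue was not checked against marker genes and no function is given for any transcript below.

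Bread wheat is a hexaploid in which the subgenomes A, B and D each carry a related copy of most genes, spread over matching chromosomes of 7 groups. An identifier such as TraesCS3D02G115000 gives the chromosome group (3), the subgenome (D) and, after the letter G, a number that follows the order of gene models along the chromosome, while the suffix after the point names the transcript. In plants, a rise in temperature activates heat stress transcription factors within minutes, and these switch on genes of molecular chaperones, which hold or refold unfolding proteins. Many of these genes are close to silent in unstressed tissue, belong to families with neighbouring copies and respond in a graded way to temperature.

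The libraries were of similar depth, with total expected counts of 16175578 to 19497182 at 40 °C and 15778561 to 18086391 at 30 °C, so that 3 fragments are worth a CPM (the count relative to its library) of 0.154 to 0.19. The third plant at 40 °C (replicate 3) stood apart from the other plants at 40 and 30 °C. Its 100 most abundant transcripts took 38.6% of the counts, against 30.3% and 30.2% in the other plants at 40 °C and 31% to 35.3% at 30 °C. At 20 °C this share was 37% to 41.6%. Its TMM factor, edgeR's scaling for composition, was 0.8389, against 1.011 and 1.02 in the other plants at 40 °C and 1.008 to 1.083 at 30 °C. Values without this plant are given beside the results that it moved by over 1.5 times or that count transcripts above FPKM 1.

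Between 40 and 30 °C, 1587 transcripts were called at an FDR (false discovery rate, Benjamini-Hochberg over all transcripts tested) below 0.05 and a fold change above 2 in edgeR's quasi-likelihood test, which is 3.56% of those tested. Most of them rose, with 1349 transcripts (3.02%) higher at 40 °C and 238 (0.533%) lower. The called transcripts fell into 4 classes by their mean FPKM. Among those higher at 40 °C, 240 were newly expressed, with a mean FPKM of at most 1 at 30 °C and above 1 at 40 °C (0.538% of those tested), and 1109 were amplified, with a mean FPKM above 1 at both (2.48%). Among those lower, 132 were reduced, staying above FPKM 1 (0.296%), and 106 were lost, with a mean FPKM of at most 1 at 40 °C (0.237%). At any fold, 2293 transcripts (5.14%) had an FDR below 0.05, and those with a fold of 2 or less were 526 higher and 180 lower. On the FPKM scale, which carries no TMM factor, the 3 plants at 40 °C lay above the 3 at 30 °C for 9.92% of the transcripts tested and below them for 18.1%, and without replicate 3 at 40 °C (2 plants against 3) for 16.1% and 21%. Among the 1587 called transcripts the plants did not overlap in 1586.

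Crossing an FPKM of 1 was far more common than being called. Called or not, 2331 transcripts crossed the limit upward and 4072 downward, and 38235 lay above it at both temperatures. Without replicate 3 at 40 °C the crossings were 2857 upward and 3888 downward. Of those that crossed upward 10.3% were called, and of those that crossed downward 2.6%. The median log2 fold change over all transcripts tested was -0.03. Scaling by library size in place of TMM moved it by -0.13, to -0.16, and 75.1% of the calls were then higher at 40 °C, against 85% with TMM.

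**Figure D1:**
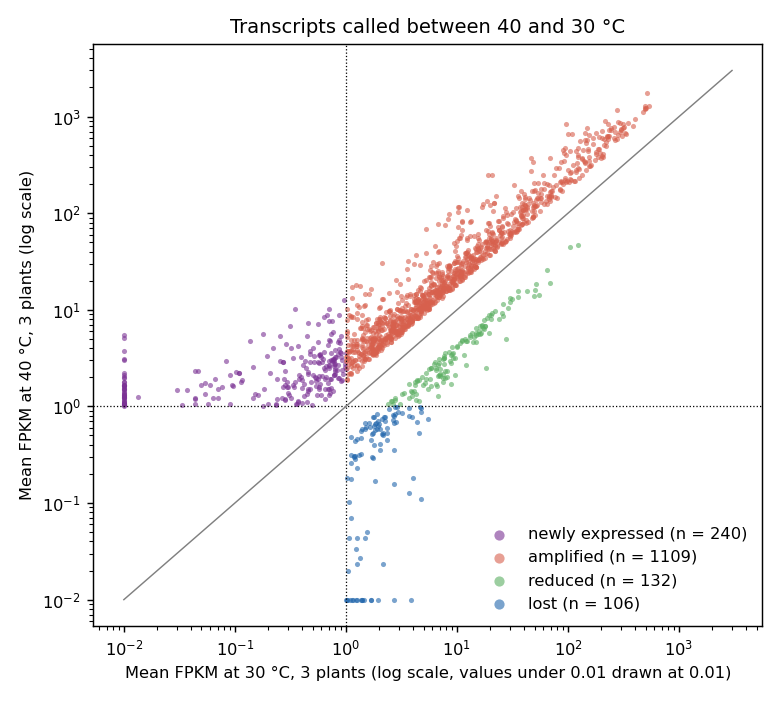
Mean FPKM at 40 °C (vertical, log scale) against mean FPKM at 30 °C (horizontal, log scale) for each transcript called between the temperatures, 3 plants each, with the dotted lines at FPKM 1 and the grey line at equal levels. The 1109 amplified transcripts run from just above FPKM 1 to above 1000. The 240 newly expressed ones reach at most 12.5 at 40 °C, and the 106 lost ones at most 5.47 at 30 °C. Transcripts without counts at a temperature are drawn at the lowest value of the axis, which is not a measured level. These are 36 newly expressed ones at 30 °C and 16 lost ones at 40 °C.

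The size of the response differed between the directions when expressed as a share of the transcript pool. The 1349 higher transcripts together took 10.1%, 9.95% and 8.03% of TPM (a transcript's share of all transcripts after correction for length) in the plants at 40 °C, against 3.36%, 3.29% and 3.51% at 30 °C. The groups of plants did not overlap, and the third plant at 40 °C was the lowest of its group. At 20 °C the same transcripts took between 0.694% and 0.706%. The 238 lower transcripts took 0.0877%, 0.067% and 0.0617% at 40 °C, against 0.202%, 0.204% and 0.217% at 30 °C, and 0.21% to 0.219% at 20 °C. These transcripts were chosen for the difference between 40 and 30 °C, so both shares are descriptions without a test.

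The number of transcripts above FPKM 1 in a plant was 41286, 41327 and 38710 at 40 °C, against 41913, 42236 and 42362 at 30 °C. All plants at 40 °C lay below all plants at 30 °C. The means were 40441 ± 1499 and 42170.3 ± 232 (SD, n = 3 each), a difference of -1729 (two-sided exact permutation test, p = 0.1, the smallest that 3 against 3 plants can give). The third plant carried much of this difference, which was -864 without it.

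**Figure D2:**
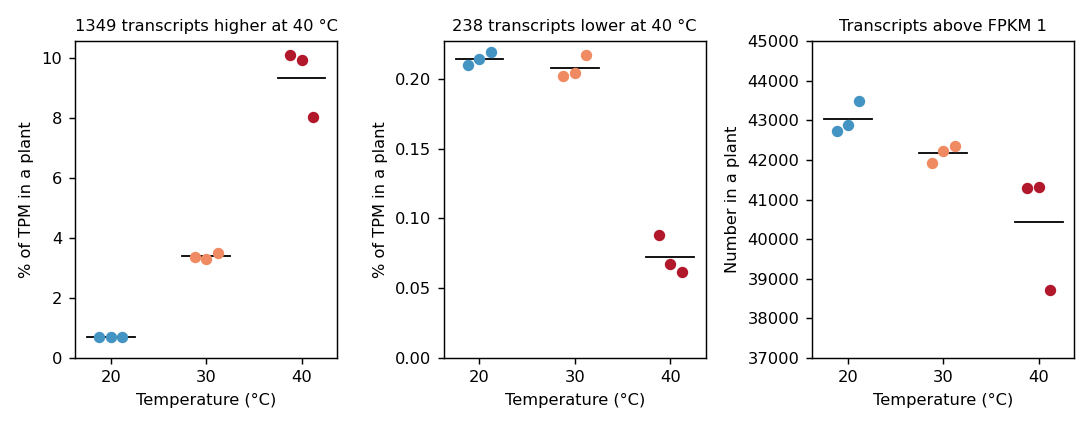
Share of TPM in each plant (points, with the mean as a line) taken by the 1349 transcripts higher at 40 °C and by the 238 lower ones, and the number of transcripts above FPKM 1 (vertical axis not starting at 0), at 20, 30 and 40 °C. The higher transcripts lie near 10.1% in the first plant at 40 °C and near 3.36% in the first at 30 °C, and the third plant at 40 °C has the fewest transcripts above FPKM 1, 38710.

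The newly expressed transcripts were low ones throughout. Their median FPKM was 0.268 at 20 °C, 0.4 at 30 °C and 1.97 at 40 °C, and 121 of the 240 stayed below FPKM 2 at 40 °C while 19 exceeded 5. The step across FPKM 1 was a small one for many of them, since 98 already had a mean FPKM above 0.5 at 30 °C. Their median log2 fold change was 2.67, and 2.65 with transcripts without counts at their bound. Of the 240, 36 had no count in any plant at 30 °C, and 10 of these had none at 20 °C either. Against a floor of 3 counts in each library at 30 °C, these 36 were at least 3.09-fold to at least 51.7-fold higher at 40 °C, where the highest of them averaged an FPKM of 5.48. At 20 °C, 19 of the 240 (7.92%) had a mean FPKM above 1. The count of newly expressed transcripts was 147 without the first plant at 40 °C, 152 without the second plant at 40 °C and 155 without the third plant at 30 °C.

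Among newly expressed transcripts, 3 combined a mean FPKM of at least 5 over the 6 samples with plants that did not overlap. TraesCS3B02G048600.1, on chromosome 3B, had an FPKM of 11, 11.9 and 7.76 at 40 °C, against 0.23, 0.22 and 0.6 at 30 °C. It was 28.9-fold higher at 40 °C (log2 fold change 4.85 ± 0.44 SE, FDR 0.00092 in edgeR's quasi-likelihood test), and at 20 °C it had counts in 1 of 3 plants. The other pair showed the same separation of plants at similar levels. TraesCS7A02G355500.1 had 11.4, 11.6 and 7.62 at 40 °C, against 0.43, 0.67 and 0.99 at 30 °C (log2 fold change 3.97 ± 0.29 SE, edgeR FDR 0.00045). TraesCS3D02G218800.1 had 11.5, 13.6 and 12.3 at 40 °C, against 1.38, 0.49 and 0.99 at 30 °C, so that 1 plant at 30 °C already passed FPKM 1 (log2 fold change 3.85 ± 0.36 SE, edgeR FDR 0.001). With 12.5, the last of these had the highest mean FPKM at 40 °C of all newly expressed transcripts.

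Amplified transcripts held nearly all of the gain in abundance. They took 9.99%, 9.89% and 7.98% of TPM at 40 °C, against 3.35%, 3.28% and 3.5% at 30 °C, while the newly expressed ones took at most 0.0631% in any plant at 40 °C. Their median FPKM was 2.78 at 20 °C, 6.89 at 30 °C and 18.1 at 40 °C, and 923 of the 1109 (83.2%) were above FPKM 1 already at 20 °C. The typical amplification was modest. The median log2 fold change was 1.45, with 924 transcripts between 2- and 4-fold, 148 between 4- and 8-fold and 37 above 8-fold. The number with a mean FPKM above 100 was 217 at 40 °C, against 102 at 30 °C.

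The 6 amplified transcripts with the largest fold change, at a mean FPKM of at least 5, were 13.9- to 16.5-fold higher at 40 °C. TraesCS6B02G456700.1 led them with an FPKM of 17.4, 21.6 and 13.4 at 40 °C, against 0.52, 0.98 and 1.89 at 30 °C (log2 fold change 4.04 ± 0.37 SE, edgeR FDR 0.00095). TraesCS4A02G092800.1 had 32.8, 30.2 and 28.5, against 2.88, 1.29 and 2.19. TraesCS5A02G424000.1 had 21.3, 13.3 and 18.4 at 40 °C, against 1.95, 1.17 and 0.92 at 30 °C. These transcripts lay only slightly above the limit at 30 °C, and TraesCS7B02G267300.1 and TraesCS1D02G282100.1 started higher. TraesCS7B02G267300.1 had an FPKM of 227, 327 and 189 at 40 °C, against 17.5, 17.2 and 22.4 at 30 °C (log2 fold change 3.83 ± 0.2 SE, edgeR FDR 0.00021). TraesCS1D02G282100.1, a transcript of 225 bases, had 64, 65.5 and 73.9 at 40 °C, against 5.31, 3.49 and 7.04 at 30 °C. The sixth, TraesCS3A02G034000.1, was the least certain, with 22.5, 15 and 16.4 at 40 °C and 0, 2.47 and 1.22 at 30 °C (log2 fold change 3.95 ± 0.7 SE, edgeR FDR 0.019). It was not called without replicate 1 or 3 at 40 °C or replicate 3 at 30 °C, with an edgeR FDR of up to 0.09.

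The largest gains in abundance belonged to 4 amplified transcripts that were 2.63- to 4.58-fold higher at 40 °C, all of which had already risen at 30 °C. TraesCS3D02G046300.1 had an FPKM of 1810, 1889 and 1546 at 40 °C, against 499, 539 and 511 at 30 °C, a gain in the mean of 1232. Its log2 fold change was 1.9 ± 0.12 SE (edgeR FDR 0.00026), and that of 30 against 20 °C was 3.79 (edgeR FDR 2.6e-05). TraesCS3D02G046700.1, a near neighbour, had 1216, 1204 and 1065, against 257, 308 and 273. TraesCS4B02G212300.1 had 1318, 1328 and 1180, against 518, 474 and 491. TraesCS3B02G130300.1 had 1305, 1382 and 1180 at 40 °C, against 542, 527 and 547 at 30 °C. In each of the 4 the third plant at 40 °C was the lowest at that temperature. No expected count of the 4 was a whole number in any of the 6 samples, which marks fragments shared with similar transcripts.

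Reduced transcripts changed by a median log2 fold change of -1.25, against 1.45 for the amplified ones, but scaling by library size gave -1.39 and 1.31 for the same transcripts, so which class changed more depended on the scaling. In the reduced class 126 of the 132 lay between 2- and 4-fold and 6 between 4- and 8-fold. Their median FPKM was 8.13 at 20 °C, 8.89 at 30 °C and 3.17 at 40 °C, and 131 of them (99.2%) were above FPKM 1 at 20 °C. Counts in this direction fell when single plants were left out, which sets 2 plants against 3. The effect of the smaller number of plants alone was not tested. The reduced class held 57 transcripts without the second plant at 40 °C, 45 without the second plant at 30 °C and 51 without the third plant at 30 °C, and all lower transcripts came to 124, 95 and 92.

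The 4 largest drops in FPKM were all reduced transcripts. TraesCS2D02G493500.1 had an FPKM of 62.2, 40.4 and 36.9 at 40 °C, against 121, 115 and 131 at 30 °C (log2 fold change -1.27 ± 0.18 SE, edgeR FDR 0.0073). TraesCS2B02G521600.2 had 58.8, 39.2 and 36.6, against 103, 101 and 113 (log2 fold change -1.1 ± 0.17 SE, edgeR FDR 0.01). Both were near their 30 °C level at 20 °C, with means of 109 and 95.4. The other pair peaked at 30 °C. TraesCS5D02G388700.1 had 29.3, 14.8 and 12.5 at 40 °C, against 75.1, 56.1 and 74 at 30 °C, and TraesCS3A02G421000.1 had 19.3, 15.2 and 8.12 at 40 °C, against 55.6, 47.4 and 63 at 30 °C. At 20 °C their mean FPKM was 18 and 13.5. TraesCS2B02G521600.2 was not called without the second plant at 40 °C (its fold fell to 2 or less at an edgeR FDR within 0.0079 to 0.049), nor TraesCS5D02G388700.1 without that plant or the third at 30 °C (edgeR FDR of up to 0.058).

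The 6 reduced transcripts with the largest fall at a mean FPKM of at least 5 had log2 fold changes of -2.73 to -1.89. TraesCS4A02G034500.1 had an FPKM of 2.43, 1.42 and 2.14 at 40 °C, against 6.94, 6.44 and 11.1 at 30 °C (log2 fold change -1.89 ± 0.3 SE, edgeR FDR 0.012). It was the only one of the 6 that was called without any one of the plants. TraesCS3A02G517100.1 had 1.18, 3.18 and 3.09 at 40 °C, against 18.9, 27.8 and 8.59 at 30 °C (log2 fold change -2.73 ± 0.54 SE, edgeR FDR 0.029). TraesCS5B02G382300.1 had 7.37, 3.69 and 3.8 at 40 °C, against 48.7, 15 and 18.5 at 30 °C (log2 fold change -2.37 ± 0.51 SE, edgeR FDR 0.04). The spread between plants at 30 °C was wide for both. TraesCS3D02G416700.1, TraesCS3D02G382600.1 and TraesCS7A02G040700.3 had mean FPKMs of 1.71, 2.71 and 2.12 at 40 °C, against 8.75, 12.1 and 9.65 at 30 °C. For TraesCS7A02G040700.3 the sum over its gene changed by -0.42 (edgeR FDR 0.15), and its own edgeR FDR was 0.078 in one model over all 9 samples. For these 5, leaving out 1 plant raised the edgeR FDR to at most 0.13, TraesCS3D02G382600.1 being lost without the second plant at 40 °C or the third at 30 °C and the others without 4 or 5 of the 6 plants in turn.

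Lost transcripts were low at 30 °C as well. Their median FPKM was 1.61 at 20 °C, 1.79 at 30 °C and 0.457 at 40 °C, their median log2 fold change was -1.96 (also -1.96 with transcripts without counts at their bound), and 41 of the 106 exceeded FPKM 2 at 30 °C. The highest reached 5.47. Of the 106, 16 had no count at 40 °C and were at least 4.38-fold to at least 55.7-fold lower against a floor of 3 counts in each library at 40 °C. The class held 67 transcripts without the second plant at 40 °C, 50 without the second plant at 30 °C and 41 without the third plant at 30 °C.

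At a mean FPKM of at least 2 at 30 °C, several of the largest losses were of 1 transcript and not of its gene. TraesCS5A02G005500.6 had no count at 40 °C, against an FPKM of 2.95, 3.3 and 1.85 at 30 °C, and was at least 55.7-fold lower (edgeR FDR 0.001, and 0.065 in one model over all 9 samples). With counts summed over the transcripts of its gene, the log2 fold change was 0.02. TraesCS3B02G272400.2 had 0.01, 0 and 0.06 at 40 °C, against 1.64, 2.45 and 2.38 at 30 °C (edgeR FDR 0.0022), and its gene's sum changed by 0.23. TraesCS6B02G050200.2 had 0, 0 and 0.33, against 7.45, 4.25 and 2.67 (edgeR FDR 0.028), and its gene's sum changed by 0.28. TraesCS1A02G228800.1 had no count at 40 °C and 2.26, 5.58 and 3.71 at 30 °C, at least 4.38-fold lower (edgeR FDR 0.026). Leaving out plants ended calls for the last pair. TraesCS1A02G228800.1 was not called without replicate 1 or 2 at 40 °C or replicate 2 or 3 at 30 °C (edgeR FDR of up to 0.11), and TraesCS6B02G050200.2 was called only without the third plant at 40 °C (edgeR FDR of 0.014 to 0.08 over the 6 fits).

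**Figure D3:**
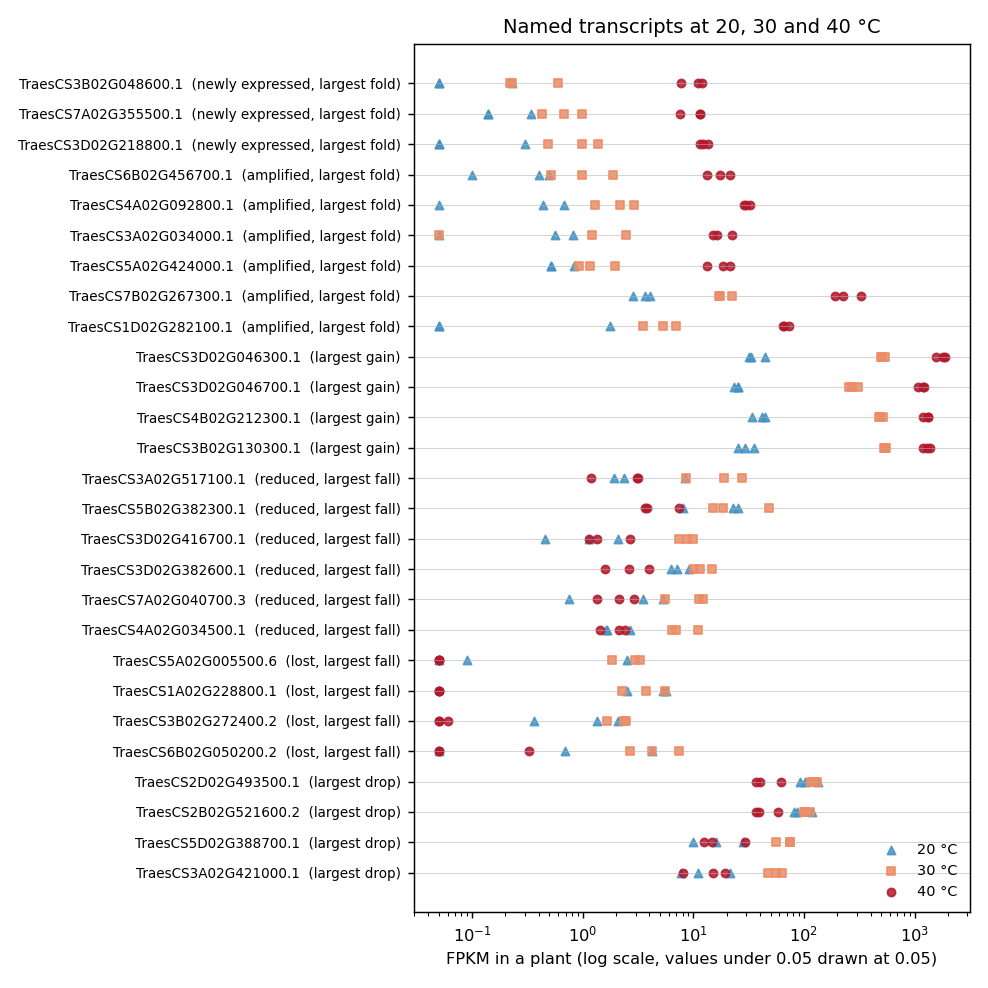
FPKM in each plant (log scale) at 20, 30 and 40 °C for the transcripts chosen by size of change, one transcript a line, grouped as newly expressed, amplified, largest gain, reduced, lost and largest drop. The transcripts were chosen among those whose plants at 40 °C lie beyond those at 30 °C, and the 4 largest gains have means of 1162 to 1748 at 40 °C, against 279 to 539 at 30 °C.

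The transcripts of a gene did not always move together. The 1349 higher transcripts belonged to 1311 genes and the 238 lower ones to 238 genes. Another tested transcript of the same gene existed for 15% of the higher and 21% of the lower transcripts, against 13.7% of all tested. Of the 240 newly expressed transcripts, 79 belonged to genes whose summed FPKM was above 1 at 30 °C, and 38 of the 106 lost ones belonged to genes still above 1 at 40 °C. When counts were summed over genes, 176 of the genes of newly expressed transcripts were called higher, 68 of those of lost transcripts were called lower, and none was called in the other direction. Over all 42056 genes tested in this way, 1505 (3.58%) were higher and 364 (0.866%) lower.

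In 6 genes, chosen after their values were seen, 1 transcript was called higher and another lower: TraesCS2B02G510600, TraesCS3B02G272400, TraesCS3B02G293100, TraesCS6B02G259800, TraesCS7A02G426200 and TraesCS7B02G095300. Only in TraesCS6B02G259800 were both calls kept without any one plant. Both calls of TraesCS2B02G510600 (edgeR FDR 0.039 and 0.05) ended without any one of the plants, that of TraesCS3B02G272400.1 in 5 of the 6 such fits, and those of TraesCS3B02G293100.1 and TraesCS7B02G095300.2 in 4. TraesCS7B02G095300.4 lost its call in 2 of them and each transcript of TraesCS7A02G426200 in 1, with an edgeR FDR of up to 0.15 over the 6 genes.

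In TraesCS6B02G259800 and TraesCS7A02G426200 each transcript had counts at only 1 of the 2 temperatures. TraesCS7A02G426200.1 had no count at 40 °C and an FPKM of 2.21, 0.99 and 1.84 at 30 °C, and TraesCS7A02G426200.2 had 0.93, 1.84 and 1.91 at 40 °C and no count at 30 °C. Their edgeR FDRs of 0.012 and 0.013 became 0.12 and 0.067 in one model over all 9 samples. For TraesCS6B02G259800, the transcripts TraesCS6B02G259800.1 and TraesCS6B02G259800.2 are 2304 and 2292 bases long, and in the model over 9 samples the second had an edgeR FDR of 0.082. TraesCS6B02G259800.1 had an FPKM of 1.7, 1.86 and 1.45 at 40 °C and no count at 30 °C, and TraesCS6B02G259800.2 had no count at 40 °C and 2.15, 1.7 and 2.01 at 30 °C, a bound of at least 21.6-fold for each. At 20 °C both were present, the longer with 0.46, 1.74 and 2.55 and the shorter with 1.49, 0 and 0, and the gene's sum changed by -0.09 in log2 between 40 and 30 °C. TraesCS3B02G293100 differed, since its gene's sum rose by 1.14. Its transcript TraesCS3B02G293100.2 had 25.7, 29.5 and 26.2 at 40 °C, against 9.61, 9.2 and 6.78 at 30 °C, while TraesCS3B02G293100.1 had 3.22, 1.39 and 1.79, against 6.74, 7.56 and 6.24. Fragments that fit several transcripts of a gene were divided by estimation, and whether the exchanges come from that division was not tested.

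The 3 subgenomes had similar shares of calls. On subgenome A 423 transcripts (2.89% of those tested on it) were higher and 80 (0.546%) lower, on B 456 (3.1%) and 86 (0.584%), and on D 455 (3.11%) and 72 (0.492%). Newly expressed transcripts numbered 84, 78 and 75 on A, B and D, amplified ones 339, 378 and 380, reduced ones 45, 41 and 46, and lost ones 35, 45 and 26. Against 0.237% over all tested, lost transcripts made up 0.306% on B and 0.178% on D. Of the 640 tested transcripts without a chromosome, 15 (2.34%) were higher. The shares of all expected counts on each subgenome were close, and no p can fall below 0.1 with 3 against 3 plants. Subgenome A took 31.2% ± 0.723 at 40 °C and 32.2% ± 0.802 at 30 °C (SD, n = 3 each, two-sided exact permutation test, p = 0.3), B took 31.1% ± 0.372 and 29.9% ± 0.996 (exact p = 0.2), and D took 30.9% ± 0.456 and 30.5% ± 0.416 (exact p = 0.3). Without the 100 most abundant transcripts the difference was -0.63 points for A and 0.32 for D (exact p = 0.1 each) and 0.24 for B (exact p = 0.2), and without replicate 1 at 30 °C it was -1.41 for A and 1.66 for B (exact p = 0.1 each). The difference for A was -0.55 without replicate 3 at 40 °C and -0.64 without replicate 3 at 30 °C, against -0.97 with all plants, that for B was 0.66 without replicate 3 at 30 °C, against 1.17, and that for D ran between 0.15 without replicate 2 at 40 °C and 0.65 without replicate 3 at 30 °C, against 0.41.

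Between chromosomes, the share of higher transcripts ranged more widely. Chromosome 4D had the highest, with 75 of 1804 tested transcripts (4.16%, against 3.02% overall), and the next were 4A (3.59%), 6D (3.56%) and 4B (3.46%). The lowest were 5D (2.37%), 3A (2.47%) and 2A (2.55%). Chromosome 4D was also first without each plant in turn (3.31% to 4.06%), with library size in place of TMM (3.33%), and over genes with each run of neighbours counted as 1. Group 4 as a whole had 212 higher transcripts (3.73%) and group 5 had 185 (2.63%). Lower transcripts were most frequent in group 7, with 52 (0.842%, against 0.533% overall), of which chromosome 7D had 19 (0.892%), 7A 18 (0.839%) and 7B 15 (0.788%). Chromosome 6B, with 16 (0.844%), was far from 6A with 5 (0.288%) and 6D with 6 (0.35%). These counts are small, and no chromosome was tested against the others.

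**Figure D4:**
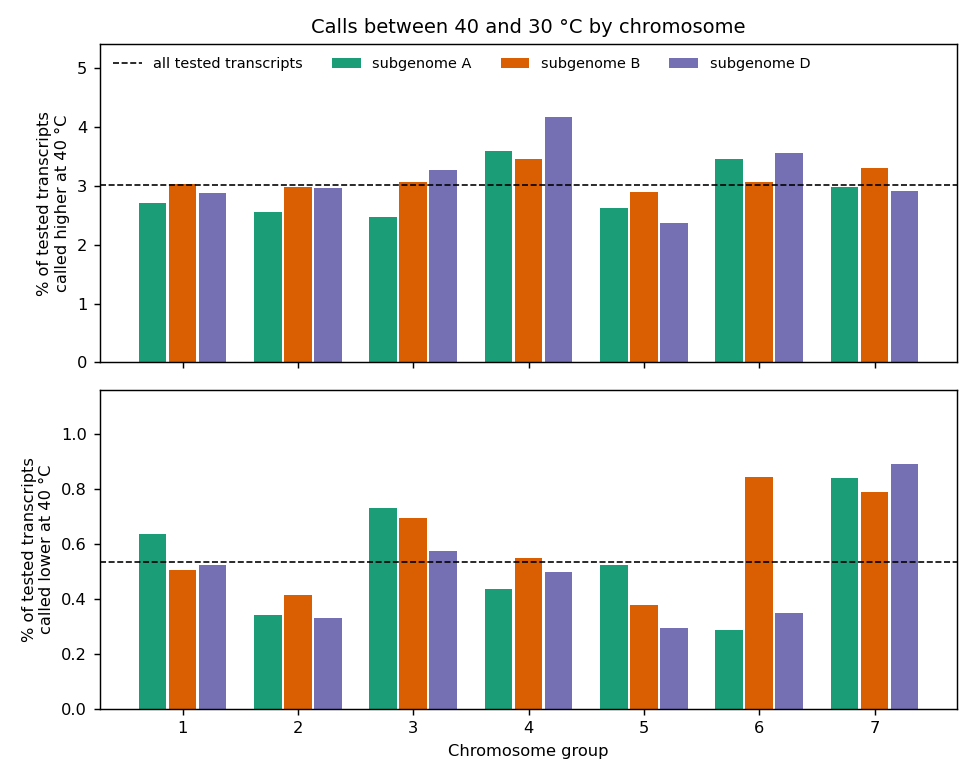
Percent of tested transcripts called higher (top) and lower (bottom) at 40 °C for each chromosome, by chromosome group and subgenome, with the dashed line at the percent over all tested transcripts (3.02% and 0.533%). All chromosomes of groups 4 and 6 lie above the line for higher transcripts, with 4D at 4.16%. For lower ones, all chromosomes of groups 3 and 7 lie above the line.

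Genes called higher often stood next to each other. Of 1301 tested neighbours of genes with a higher transcript, 182 (14%) also held one, against 3.18% of all placed genes tested. In all, 151 of the 1296 placed genes with a higher transcript (11.7%) stood in 60 runs of consecutive gene models, and 12 runs held 3 or more genes. For lower transcripts 12 of 223 tested neighbours (5.38%) were called lower, against 0.584%, and 1 run held 3 genes. The share of neighbours called higher was 12% to 13.4% without each plant in turn. In the 3 longest runs every transcript had a fractional expected count in 1 or more of the 6 samples, which marks fragments shared with some other transcript, and whether these were shared within a run was not tested.

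The longest run held 8 genes on chromosome 3D, TraesCS3D02G114700 to TraesCS3D02G115400, all amplified. Their summed FPKM was 5045, 4865 and 4026 at 40 °C, against 1379, 1347 and 1421 at 30 °C, and 115, 111 and 89.7 at 20 °C. All 8 rose, as the choice of genes called higher required, with log2 fold changes of 1.57 to 2.47 (edgeR FDR of at most 0.0014). The most abundant, TraesCS3D02G115100.1, had 981, 952 and 752 at 40 °C, against 215, 212 and 223 at 30 °C. TraesCS3D02G115400.1, at the end of the run, was far lower with 35, 28.8 and 28, against 7.54, 7.84 and 5.43.

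Runs of 7 genes lay on chromosomes 7B and 7D. TraesCS7B02G082900 to TraesCS7B02G083500 had a summed FPKM of 918, 1050 and 669 at 40 °C, against 232, 256 and 296 at 30 °C, with log2 fold changes of 1.39 to 3.24 (edgeR FDR of at most 0.0017). TraesCS7D02G179000 to TraesCS7D02G179600 had 718, 799 and 463, against 109, 141 and 145, with log2 fold changes of 2.09 to 2.96 (edgeR FDR of at most 0.0016). In the sums of both runs every plant at 40 °C exceeded every plant at 30 °C, and the third plant at 40 °C was the lowest of its group. Runs were chosen from calls on these same plants, so the separation of the temperatures is a description without a test. Within the 7B run, TraesCS7B02G083000.1 rose most, with 32.9, 41.6 and 21.2 at 40 °C, against 3.5, 3.32 and 4.07 at 30 °C (9.46-fold), and TraesCS7B02G083500.1 least, with 349.8, 400.3 and 261, against 128, 132 and 163 (2.62-fold). The 7D run was more even, its largest change being the 7.8-fold rise of TraesCS7D02G179300.1, with 141, 165 and 93.9 at 40 °C and 17.5, 19.9 and 18.4 at 30 °C.

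**Figure D5:**
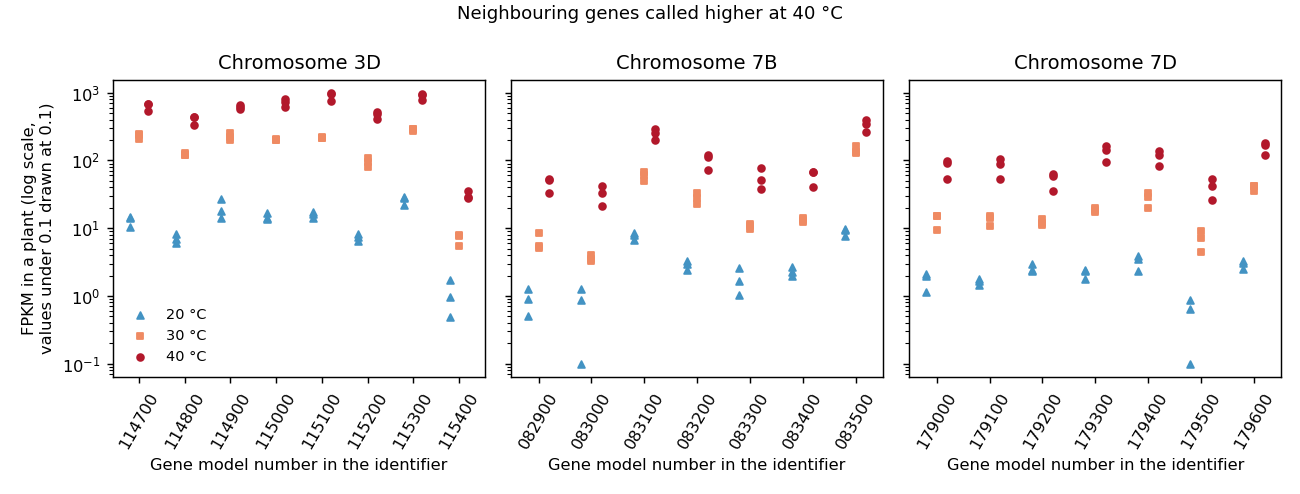
FPKM in each plant (log scale) at 20, 30 and 40 °C for the genes of the 3 longest runs of neighbours called higher, in identifier order along chromosomes 3D, 7B and 7D, with values under 0.1 drawn at 0.1. Every gene lies higher at 40 than at 30 °C, as the choice of genes called higher required, and higher at 30 than at 20 °C. The 3D run includes the most abundant gene, with a mean of 895 at 40 °C.

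The shorter runs included some of the most abundant transcripts. On chromosome 3B, TraesCS3B02G130900 to TraesCS3B02G131300 (5 genes) had a summed FPKM of 2897, 2780 and 2352 at 40 °C, against 834, 789 and 793 at 30 °C. TraesCS3A02G112900 to TraesCS3A02G113100 on 3A (3 genes) had 2813, 2826 and 2327, against 1035, 1005 and 1076. On 3D, TraesCS3D02G045500 to TraesCS3D02G045800 (4 genes) had 2412, 2544 and 2067, against 515, 517 and 520.5. Group 3 thus held runs on all its chromosomes, as did groups 4, 5, 6 and 7 when runs of 2 genes were counted. Runs of 4 genes on 4A (TraesCS4A02G092600 to TraesCS4A02G092900) and 4D (TraesCS4D02G212200 to TraesCS4D02G212500) had somewhat lower sums at 40 °C than the group 3 runs above. A run of 3 newly expressed genes stood on chromosome 4D, TraesCS4D02G055500 to TraesCS4D02G055700, with a sum of 11, 7.29 and 9.81 at 40 °C, against 2.38, 1.42 and 1.37 at 30 °C. The run of lower genes, TraesCS3D02G382600 to TraesCS3D02G382800, had 9.38, 6.51 and 4.64 at 40 °C, against 24.6, 20.1 and 28.7 at 30 °C.

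Abundant transcripts were called higher more often than rare ones. Among transcripts with a mean FPKM above 100 over the 6 samples, 16% were higher (160 of 1000), against 7.27% among those between 20 and 100 and 1.49% among those of at most 2. Lower calls made up 0.705% of those of at most 2 and 0% of those above 100. The mean over the 6 samples includes the plants at 40 °C, so the order is a description without a test. The power to call a change was not matched between the levels of abundance. By transcript length the share of higher calls ran between 2.41% and 3.56%, and by position in 10 equal parts of the gene order along the chromosome between 2.42% and 3.57%. Lost transcripts were the longest class, with a median of 2096 bases, against 1554 over all tested, and amplified ones the shortest with 1417. The newly expressed ones, also low in FPKM, had 1683. The classes were not matched for abundance, and whether length affected which low transcripts could be called was not tested.

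The step before, from 20 to 30 °C, gave calls of its own, and both steps share the plants at 30 °C. The plants at 20 °C stayed in place, so the first step also includes the move to an incubator. In comparisons with 20 °C the move and the temperature cannot be told apart. Against 20 °C, 1185 transcripts (2.58%) were higher and 599 (1.3%) lower at 30 °C, and 3485 (7.54%) were higher and 2098 (4.54%) lower at 40 °C. Whether the steps differed was tested as the log2 change from 30 to 40 °C minus that from 20 to 30 °C, over all 9 samples and 47535 transcripts, with the same limits in edgeR's quasi-likelihood test. This called 42 transcripts (0.0884%) as more upward in the second step and 215 (0.452%) as more downward. The first count was 25 and 22 without replicates 1 and 3 at 20 °C and 16 and 19 without replicates 2 and 3 at 30 °C. The second was 132, 93 and 89 without replicates 1, 2 and 3 at 30 °C. On simulated data the test of the difference between the steps recovered 122 of 200 changes, so steps that differ can go uncalled.

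Of the 215 transcripts more downward in the second step, 119 were called higher between 40 and 30 °C and 26 lower. By the sign of their fitted changes, 153 went up in both steps, by less in log2 in the second, and 60 went up and then down. The transcripts with the largest gains in FPKM were of the first kind, although their mean FPKM rose by more in the second step. At 20, 30 and 40 °C the means were 30.1, 539 and 1289 for TraesCS3B02G130300.1. For TraesCS3D02G046300.1 they were 36.6, 516 and 1748. For TraesCS3B02G130300.1 the log2 change was 1.4 in the second step and 4.14 in the first, a difference of -2.73 (edgeR FDR 0.0012), and for TraesCS3D02G046300.1 it was 1.9 and 3.79, a difference of -1.89 (edgeR FDR 0.0092). TraesCS3A02G421000.1 was of the second kind, with -1.85 and 2.01 (difference -3.85, edgeR FDR 0.024), as was TraesCS4A02G034500.1 with -1.89 and 2 (difference -3.88, edgeR FDR 0.011). Of the 42 more upward transcripts, 34 went down and then up, and 6 went up in both steps.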

How the data were processed

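RNA-seq of wheat grains was deposited for 9 samples, with groups and replicate numbers taken from the sample titles. Per the methods of the study and the processing notes, the authors trimmed reads (Trimmomatic 0.36), aligned them to the IWGSC v1.0 genome and quantified transcripts with RSEM 1.3.0, and used edgeR 3.24.3 for their own tests. The authors deposited for each transcript the expected count, an estimate that need not be whole and is not normalized. The deposited TPM values are length-corrected and scaled to a common total, and the deposited isoform percent (% of a gene's TPM on each transcript) was not used. The deposited FPKM values are corrected for length and for the library's fragments.

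Expected counts of the 3 samples at 40 °C and the 3 at 30 °C were rounded, filtered at a mean FPKM above 1 at 40 or 30 °C, scaled by TMM and tested with edgeR's quasi-likelihood test without a replicate block (edgeR 4.0.16, limma 3.58.1, R 4.3.3). Calls needed a Benjamini-Hochberg FDR below 0.05 and a fold above 2. Each SE was derived from the fold change and the test's F statistic. Gene order came from the identifiers, and counts were called whole within 0.005. On simulated data with 200 changed transcripts, the test of 40 against 30 °C recovered 184, with 3 false calls. The test of the difference between the steps recovered 122 of 200, with 8 false calls. Floors cover counting error only, and p-values measure the spread between the plants, not that between incubators.

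The samples, classes and rules were chosen with earlier results of these data known. Named transcripts were called ones with plants at 40 °C beyond those at 30 °C, namely the 6 newly expressed, 6 amplified and 6 reduced with the largest fold at a mean FPKM of at least 5 over the 6 samples (3 newly expressed ones met this), the 4 lost with the largest fold at a mean of at least 2 at 30 °C, the 4 largest gains and drops in FPKM, and the members of the 3 longest runs. Lists of heat response genes, cell type markers and promoter motifs needed gene names and were not used here. Alternatives were other scaling, tools, filters, gene sums, a replicate block, one model over all samples and leaving out each plant.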

Additional observations from a re-analysis of the deposited data

Results flagged for a closer look

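The change from 30 to 40 °C differed from the change from 20 to 30 °C for 42 transcripts in the upward sense and for 215 in the downward sense, in edgeR's quasi-likelihood test of the difference between the steps (FDR below 0.05, difference above 1 in log2, 47535 transcripts). Both steps share the plants at 30 °C, so a high or low plant there moves them in opposite directions. The first step also includes the move to an incubator, which the 20 °C plants did not make. Without single plants the counts ran between 16 and 42 in the upward sense and between 89 and 244 in the downward sense.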

How the results depend on the processing

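The direction of the calls, more higher than lower, held under every alternative run. Without each plant in turn, all calls ran between 1098 and 1508, higher ones between 1006 and 1335, lower ones between 92 and 194, newly expressed between 147 and 233, amplified between 848 and 1102, reduced between 45 and 104, lost between 41 and 90, and second-step calls between 16 and 42 upward and 89 and 244 downward. Without the third plant at 40 °C, 85.6% of calls were higher. Of the higher calls 824 (61.1%) were called without any one plant, of the lower ones 43 (18.1%). Lower calls were 437 with DESeq2 (47 adjusted p not available), 546 with edgeR's exact test, 142 without the FPKM filter and 364 over gene sums. Newly expressed transcripts were 452 with the exact test, 361 at an FPKM limit of 2 and 144 without the filter. Lost ones were 201 with DESeq2, 306 with the exact test, 176 in one model over all 9 samples, 69 at an FPKM limit of 0.5, 40 without the filter and 162 over gene sums. Reduced ones were 222 by library size, 236 with DESeq2, 240 with the exact test, 73 without the filter and 202 over gene sums. At an FPKM limit of 2 the upward second-step calls were 65. The cause of these differences was not tested.

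Of the 1587 calls, 1578 were also called by DESeq2 and 1587 by the exact test. Both of these called more transcripts on the same 6 samples, 2055 and 2289. Library size kept 1268 of the 1587 among its 1398 calls, and the model over 9 samples 1474 among its 1721. Of 852 values of 61 named transcripts, 743 kept their call, 101 lost it and 8 changed sign, the last all over gene sums, which gave log2 changes of 0.02 for TraesCS5A02G005500.6, 0.23 for TraesCS3B02G272400.2, 0.28 for TraesCS6B02G050200.2, 0.12 for TraesCS2B02G510600.1, 1.14 for TraesCS3B02G293100.1, -0.09 for TraesCS6B02G259800.1, 0.11 for TraesCS7A02G426200.1 and 0.63 for TraesCS7B02G095300.2.

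Same-numbered plants at 40 and 30 °C did not clearly deviate together (correlations of -0.03, 0.12 and -0.19). Other pairs of plants ran between -0.27 and 0.27. With 3 plants at each temperature, these values cannot settle whether the numbers pair the plants. With a replicate block, 1061 transcripts were called, 954 higher and 107 lower, with 112 newly expressed, 61 reduced and 46 lost, and second-step calls were 16 upward and 115 downward. Of the calls without the block 1010 were kept.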
